A study of Homo sapiens with 24 samples.

Results

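The ephrins and Eph receptors described here are 10 genes of one signalling family: the ligand genes EFNA1, EFNA4, EFNA5, EFNB1 and EFNB2 and the receptor genes EPHA2, EPHA4, EPHB1, EPHB2 and EPHB4. They were chosen by symbol from the 57820 rows of a table of normalised counts, from a list that was drawn up with their response to YC-1 in view. All 10 were among the 17860 genes that passed the filter on low values, which asked for a normalised count of at least 10 in at least 3 libraries, and 9 of the 10 reached 10 in each of the 24 libraries. EPHB1 reached 10 in 22.

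RNA was sequenced from RBE and SNU1079, 2 established human cholangiocarcinoma (bile duct cancer) cell lines. Both lines carry mutant IDH1 and express SULT1A1, a sulfotransferase, per the labels, so every group shares these features and each is 1 line. Cells received YC-1, a small molecule best known for activating soluble guanylate cyclase, or DMSO, the vehicle, and were collected 6 h or 16 h later. That gives 8 groups of 3 libraries: YC-1 and DMSO in RBE at 6 h and at 16 h, and the same 4 groups in SNU1079. The labels give no dose. The times follow the sample titles, because a separate time label gives 16 h for every DMSO library and 6 h for every YC-1 library. The replicates are called biological in the design text. The standard errors and p-values here rest on the spread between replicate libraries, pooled for each gene over all 8 groups. Each gene therefore has the same standard error in all 4 comparisons of YC-1 with DMSO, whatever the spread of the libraries compared.

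Ephrins are ligands tethered to the cell surface, so they signal where cells touch. The A class is held by a lipid anchor and prefers EphA receptors, and the B class spans the membrane and prefers EphB receptors, although EPHA4 also binds B-class ligands. Eph receptors are receptor tyrosine kinases, and binding sends a forward signal into the receptor cell and a reverse signal into the ligand cell, with effects on adhesion, cell shape and movement. In epithelia EPHA2 with its ligand EFNA1 is known for contact-dependent signalling, and EPHB2 is known for cell positioning in the intestinal lining.

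Libraries had summed normalised counts of 19010000 to 27010000. Mitochondrially encoded genes took 6.82% to 10.7% of the sum in RBE libraries other than the YC-1 libraries at 16 h, which had 15.4% to 17.0%. In SNU1079 the 3 YC-1 libraries at 16 h had 18.1%, 3.38% and 22.1%, against 6.02%, 8.20% and 8.50% in DMSO at 16 h. In SNU1079, 3 libraries stood apart from their group mates, namely YC-1 6 h replicate 1, YC-1 16 h replicate 2 and DMSO 16 h replicate 1. Their median absolute log2 difference from the mean of the mates was 0.484, 0.426 and 0.351. Counts of calls among the 10 genes that change without these libraries are given both ways. The part that mitochondrial share has in the family's values was not tested. All 6 cholangiocyte markers measured reached 10 in both lines, while the endothelial markers, 7 genes, summed to at most 46.6 in YC-1 and 87.3 in DMSO libraries. Of 5 hepatocyte markers, SERPINA1 stood at 1134 to 2142 over the libraries and the others reached at most 30.0 (TTR). Of 5 leukocyte markers, CD68 stood at 1036 to 4110 and the others reached at most 10.7 (LST1). The 6 stromal markers summed to 69.0 to 125 in YC-1 and 60.6 to 115 in DMSO libraries of RBE, with DCN and LUM at 0. In SNU1079 they summed to 722 to 3247 in YC-1 and 2021 to 3829 in DMSO libraries, with COL3A1 and DCN at 0 and 2 of the 6 reaching 10, COL1A1 and PDGFRB. The part of this sum in the family's values was not tested. In bulk RNA, fewer cells that express a gene and less of its RNA per cell cannot be told apart.

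Values are the authors' normalised counts, and each difference is a log2 difference, YC-1 minus DMSO on the log2(normalised count + 1) scale, with the standard error of a limma fit over all 24 libraries. The YC-1 values of the 10 genes are a description without p-values, since the list was made with them in view. The lists of other genes were also chosen with earlier results of these data known. Adjusted p-values given for YC-1 differences of those other genes are therefore a description too. Called means an adjusted p below 0.05 over all tested genes. Whether the libraries of a pair of groups overlap is a description, and the share of all tested genes without overlap is not given. At 6 h in RBE, 1 of the 10 genes was called higher and 6 lower, where 11.6% of all tested genes were called higher and 12.4% lower. At 16 h in RBE, 2 were called higher and 7 lower, beside 27.3% and 26.6% of all tested genes. In SNU1079 the counts were 1 higher and 7 lower at 6 h, beside 14.0% and 14.2%, and 2 higher and 7 lower at 16 h, beside 28.7% and 25.8%. The 8 calls in SNU1079 at 6 h were 5 without YC-1 replicate 3, and also 5 without DMSO replicate 2 or replicate 3. Without the 3 libraries that stood apart, SNU1079 had 1 higher and 6 lower at 6 h, and 2 higher and 6 lower at 16 h. Over the 10 genes the RBE medians of the log2 difference were -0.82 at 6 h and -1.46 at 16 h, where all tested genes had 0.00 and 0.02. The SNU1079 medians were -0.83 at 6 h and -0.90 at 16 h, where all tested genes had 0.01 and 0.06. The YC-1 responses were also compared with each other. At 16 h against 6 h they differed for 4 of the 10 genes in RBE, beside 18.2% of all tested genes, and for 4 in SNU1079, beside 17.0%. The RBE count was 2, EFNB1 and EFNB2, without any 1 of 7 of the 12 libraries, namely YC-1 6 h replicate 1 or 3, DMSO 6 h replicate 2 or 3, YC-1 16 h replicate 1 and DMSO 16 h replicate 2 or 3. The SNU1079 count was 2, EFNB1 and EPHA2, without DMSO 6 h replicate 3 or YC-1 16 h replicate 2, and 1, EFNB1, when the fit held only the SNU1079 libraries. Between RBE and SNU1079 they differed for none of the 10 at 6 h by limma, beside 1.54% of all genes and with 2 of the 10 at an unadjusted p below 0.05, and for 5 at 16 h, beside 14.6%. Of those 5, EFNA4 was lost without the 3 libraries that stood apart and in most fits that left out a single library. The scaling moves every difference at 16 h, those of the family and of the background alike. With libraries scaled to 83 ribosomal protein genes, the RBE 16 h comparison called 1053 genes higher and 9977 lower in place of 4867 and 4754, with a median of -0.82 over all genes. Under that scaling 2 of the 10 genes were called higher and 8 lower, and every called direction of the 10 genes was kept under the 3 scalings tried.

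**Figure D1:**
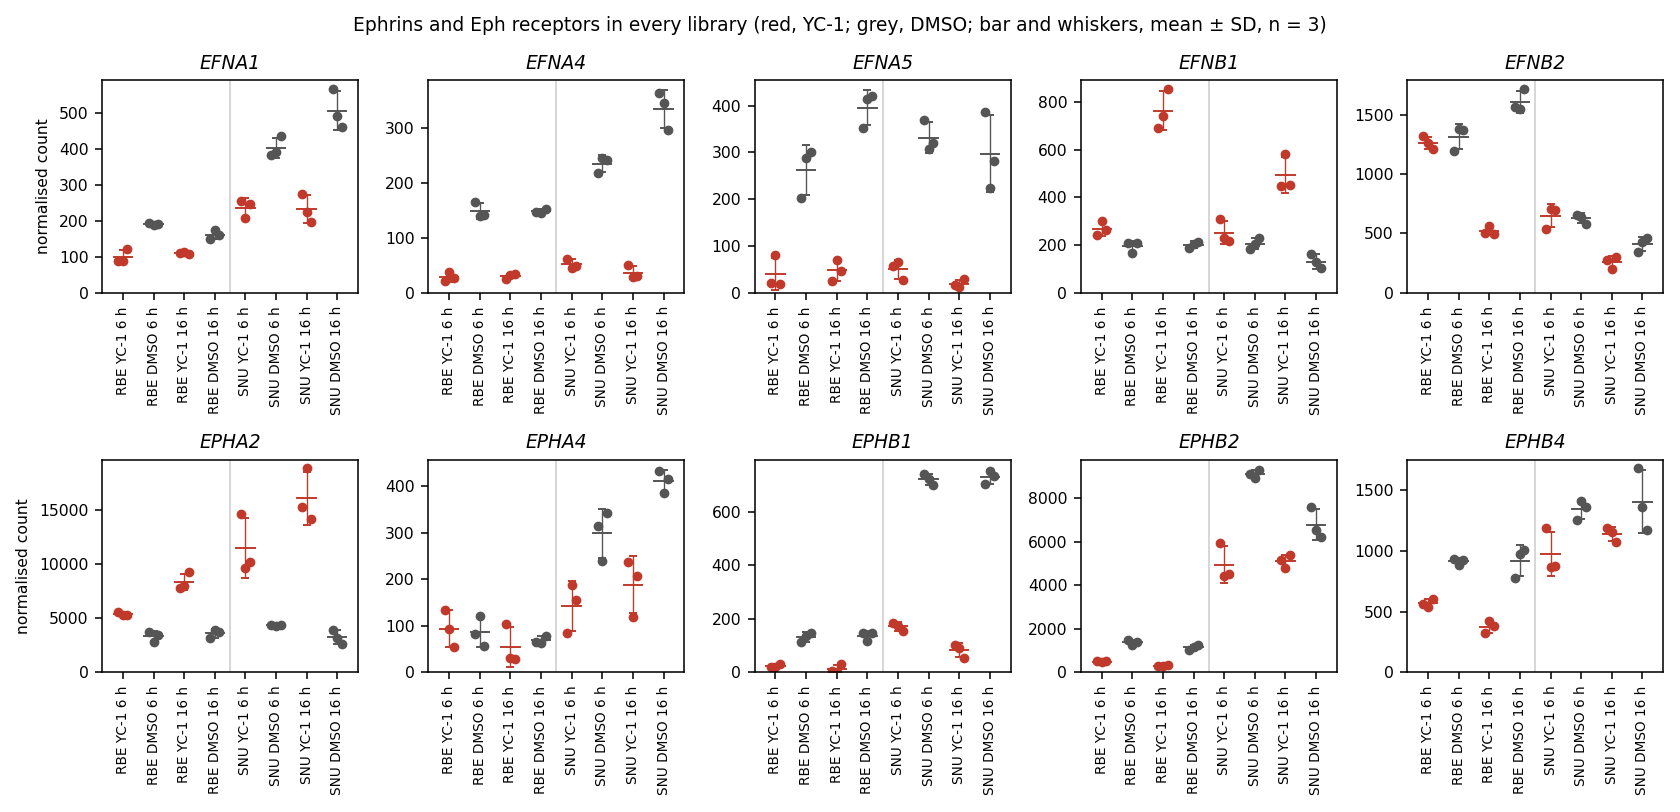
Normalised counts of the 10 genes in each of the 24 libraries, one panel a gene, with YC-1 in red and DMSO in grey, and mean ± SD of 3 libraries as bar and whiskers; SNU stands for SNU1079. EPHA2 was higher with YC-1 in all 4 pairs of groups. EFNA1, EFNA4, EFNA5, EPHB1 and EPHB2 were lower in all 4 without overlap, and EFNB1 and EFNB2 differed mainly at 16 h. The share of all tested genes without overlap is not given.

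The A-class ligands had lower values with YC-1 in both lines from 6 h on. EFNA4, whose product binds several EphA receptors, lies on chromosome 1 at chr1:155063731-155069553 on the plus strand (GRCh38, GENCODE 29) and spans 5.823 kb. EFNA4 had 21.4, 38.3 and 26.8 normalised counts in YC-1-treated RBE cells at 6 h, against 166, 139.8 and 142 in DMSO. By 16 h the RBE values were 25.8, 32.5 and 33.6 with YC-1 and 147, 146 and 153 with DMSO. No YC-1 library reached a DMSO library at either time, and the log2 differences were -2.37 ± 0.22 at 6 h and -2.25 ± 0.22 at 16 h (SE). SNU1079 cells had 62.2, 44.8 and 48.4 with YC-1 at 6 h, against 218, 247 and 242 with DMSO. At 16 h the SNU1079 values were 49.9, 28.6 and 31.0 with YC-1 and 364, 346 and 297 with DMSO. The groups did not overlap in SNU1079 either, with log2 differences of -2.18 ± 0.22 and -3.21 ± 0.22.

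EFNA5, an A-class ligand best known from axon guidance, covers 294.007 kb at chr5:107376889-107670895 on the minus strand. In RBE at 6 h EFNA5 stood at 20.6, 80.4 and 18.6 with YC-1, against 202, 288 and 300.0 with DMSO. The 16 h values in RBE were 25.5, 69.7 and 47.3 with YC-1 and 353, 413 and 421 with DMSO. At 6 h 1 YC-1 library lay well above its mates, and at both times every YC-1 library was below every DMSO library. In SNU1079 the YC-1 libraries held 57.0, 65.3 and 27 at 6 h, against 369, 306 and 319 in DMSO. They held 16.9, 11.2 and 28.9 at 16 h, against 386, 224 and 282 in DMSO. None of the 4 pairs of groups overlapped, and the log2 differences were -3.0 ± 0.46 and -3.14 ± 0.46 in RBE and -2.80 ± 0.46 and -3.96 ± 0.46 in SNU1079. Without the 3 libraries that stood apart, the SNU1079 values were -2.94 and -3.45, and without YC-1 replicate 2 the RBE value at 6 h was -3.66.

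EFNA1, the ligand that EPHA2 prefers, lies at chr1:155127460-155134857 on the plus strand and spans 7.398 kb. Its differences were the smallest of the 3 A-class members in each comparison. RBE libraries ranged over 87.9 to 121 with YC-1 and 188 to 195 with DMSO at 6 h, and over 108 to 114 and 150.5 to 174 at 16 h. SNU1079 libraries ranged over 207 to 256 with YC-1 and 383 to 436 with DMSO at 6 h, and over 198 to 275 and 462 to 568 at 16 h. No pair of ranges overlapped. The log2 differences were -0.96 ± 0.15 and -0.54 ± 0.15 in RBE and -0.77 ± 0.15 and -1.13 ± 0.15 in SNU1079. With ribosomal protein scaling the EFNA1 differences at 16 h were -1.43 in RBE and -1.67 in SNU1079.

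EFNA4 and EFNA1 are neighbours, and EFNA3, another A-class ligand outside the list, lies between them at chr1:155078872-155087538. EFNA3 fell in RBE at 6 h (-1.05 ± 0.29, adjusted p = 0.0105) and at 16 h (-1.22 ± 0.29, adjusted p = 0.00129). In SNU1079 EFNA3 fell at 16 h (-1.57 ± 0.29, adjusted p = 0.000102), and its 6 h difference of -0.57 ± 0.29 missed the threshold (adjusted p = 0.154). The RBE call at 6 h was lost without YC-1 replicate 3, at -0.93. The libraries of EFNA3 in SNU1079 at 16 h were 114, 97.9 and 88.1 with YC-1 and 352, 288 and 261 with DMSO. Within 50 kb of the stretch from EFNA4 to EFNA1, a window set after these values were seen, 8 other genes were tested. None of the 8 had a difference below 0 in all 4 comparisons. SLC50A1, a sugar transporter gene that starts next to the end of EFNA1, had differences of 0.48 and 1.16 in RBE and 0.59 and 0.64 in SNU1079, called higher in all 4. On the other side, ADAM15, a metalloprotease gene that ends next to the start of EFNA4, had 0.15 and 0.76 in RBE and 0.16 and 0.77 in SNU1079, called at 16 h only. The 1 neighbour called lower was DCST1-AS1, an antisense RNA gene, with -1.28 in SNU1079 at 16 h, and it was called higher in RBE at 16 h with 0.77. Differences below 0 that were not called also stood among these neighbours in some comparisons, such as -0.78 for DPM3 in SNU1079 at 6 h and -0.35 for TRIM46 in RBE at 6 h.

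The B-class ligands went separate ways. EFNB1, a transmembrane ligand whose loss causes craniofrontonasal syndrome, lies at chrX:68828997-68842147 on the plus strand. RBE cells with YC-1 had EFNB1 at 243, 301 and 264 at 6 h, against 210.1, 168 and 207 with DMSO. At 16 h in RBE, EFNB1 was at 694, 744 and 855 with YC-1 and 187, 204 and 214 with DMSO. All YC-1 libraries were above the DMSO libraries at both times, narrowly at 6 h, and the log2 differences were 0.47 ± 0.18 and 1.91 ± 0.18. In SNU1079 at 6 h the YC-1 libraries gave 309, 232 and 218 and overlapped the DMSO libraries at 184, 204 and 229. The 16 h values in SNU1079 were 447, 581 and 452 with YC-1 and 163, 127 and 102 with DMSO, again with no overlap. The log2 differences in SNU1079 were 0.28 ± 0.18 at 6 h and 1.92 ± 0.18 at 16 h.

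EFNB2, the ligand of EPHB4 and EPHB2 best known from arteries, covers 45.932 kb at chr13:106489731-106535662 on the minus strand. At 6 h EFNB2 in RBE was 1317, 1259 and 1215 with YC-1 and 1193, 1381 and 1374 with DMSO, and the groups overlapped. The RBE values at 16 h were 507, 559 and 491 with YC-1, far below 1566, 1548 and 1715 with DMSO. SNU1079 libraries at 6 h had 536, 708 and 698 with YC-1 and 659, 641 and 579.9 with DMSO, also overlapping. At 16 h SNU1079 had 276, 198 and 301 with YC-1, against 341, 428 and 459 with DMSO, without overlap. The log2 differences were -0.06 ± 0.15 and -1.63 ± 0.15 in RBE, while SNU1079 had 0.04 ± 0.15 and -0.67 ± 0.15. With ribosomal protein scaling the 16 h differences of EFNB2 were -2.53 in RBE and -1.22 in SNU1079, and those of EFNB1 were 1.01 and 1.38. At 16 h, then, EFNB1 was higher and EFNB2 lower with YC-1 in both lines, while at 6 h neither was called.

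Among the receptors, EPHA2 was the gene with higher values in all 4 comparisons. EPHA2 covers 31.751 kb at chr1:16124337-16156087 on the minus strand. EPHA2 libraries in RBE at 6 h held 5563, 5323 and 5339 normalised counts with YC-1 and 3742, 2828 and 3441 with DMSO. By 16 h they held 7799, 8031 and 9241 with YC-1 and 3147, 3862 and 3731 with DMSO. Every YC-1 library was above every DMSO library, with log2 differences of 0.71 ± 0.15 at 6 h and 1.22 ± 0.15 at 16 h. The 16 h value in RBE was 0.90 with equal library sums and 0.32 with ribosomal protein scaling, called under both. SNU1079 at 6 h gave 14680, 9661 and 10210 with YC-1, where the first library is one of those that stood apart, and 4386, 4235 and 4409 with DMSO. SNU1079 at 16 h gave 15350, 18900 and 14180 with YC-1 and 3928, 3190 and 2644 with DMSO. These groups did not overlap either, and the differences were 1.38 ± 0.15 and 2.32 ± 0.15, or 1.19 and 2.34 without the libraries that stood apart.

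To set 2 genes with higher values, EPHA2 and EFNB1, beside 1 with lower values, EFNA4, the 250 bases before their RefSeq starts (GRCh38.p14) are shown 5′ to 3′ in the direction of each gene, with motif matches in capitals. The motifs searched on both strands were the cAMP response element (CRE) TGACGTCA, the AP-1 site TGACTCA or TGAGTCA, the hypoxia response core ACGTG or CACGT, and the GC box GGGCGG or CCGCCC. The windows are chr1:16156070-16156319, minus strand for EPHA2, chrX:68828771-68829020, plus strand for EFNB1 and chr1:155063490-155063739, plus strand for EFNA4.
EPHA2: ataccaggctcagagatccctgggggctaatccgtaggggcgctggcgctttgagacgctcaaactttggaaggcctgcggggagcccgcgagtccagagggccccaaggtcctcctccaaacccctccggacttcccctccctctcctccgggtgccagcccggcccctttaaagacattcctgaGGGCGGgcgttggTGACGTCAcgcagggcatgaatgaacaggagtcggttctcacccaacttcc
EFNB1: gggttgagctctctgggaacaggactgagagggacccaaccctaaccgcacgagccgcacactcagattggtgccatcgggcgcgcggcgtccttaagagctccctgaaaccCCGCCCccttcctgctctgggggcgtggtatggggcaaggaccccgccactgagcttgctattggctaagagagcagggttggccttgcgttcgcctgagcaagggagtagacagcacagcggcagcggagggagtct
EFNA4: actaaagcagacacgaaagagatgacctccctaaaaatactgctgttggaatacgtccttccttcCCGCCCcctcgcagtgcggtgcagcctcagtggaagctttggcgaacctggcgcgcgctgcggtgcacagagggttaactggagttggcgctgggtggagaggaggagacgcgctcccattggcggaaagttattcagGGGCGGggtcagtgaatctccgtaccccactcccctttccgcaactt
The EPHA2 stretch holds 1 CRE with 43 bases between it and the start, and 1 GC box with 58 bases between. The EFNB1 stretch holds 1 GC box and the EFNA4 stretch 2. All 10 genes matched the RefSeq promoter table, although the EPHB1 window, chr3:134795010-134795259, lies inside the GENCODE span of that gene. EPHA2 was the only one of the 10 genes with a CRE in its window, a motif that 1.65% of the 35116 promoters in the table hold. None of the 10 held the AP-1 letters (4.20% of all promoters), 1 of the 2 EPHA4 starts held the hypoxia core (18.5%), and all held a GC box (42.6%). The core and the CRE share the letters ACGT, and no match in these 10 genes was shared by both motifs. A match is a description of the letters and not a measured binding site.

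EPHA4, a receptor that takes ligands of both classes, lies at chr2:221418027-221574202 and spans 156.176 kb. Its libraries scattered widely in RBE, where the YC-1 libraries ranged over 54.5 to 134 and the DMSO libraries over 55.9 to 120.3 at 6 h. At 16 h the RBE ranges were 28.2 to 104 with YC-1 and 61.8 to 78.2 with DMSO, and they overlapped at both times. SNU1079 had more EPHA4, with ranges of 83.4 to 187 with YC-1 and 239 to 342 with DMSO at 6 h, and 119.7 to 237 and 385 to 434 at 16 h. The SNU1079 groups did not overlap. The log2 differences were 0.09 ± 0.42 and -0.58 ± 0.42 in RBE, neither called, and -1.13 ± 0.42 and -1.18 ± 0.42 in SNU1079, both called. The RBE value at 16 h was -1.17 without YC-1 replicate 1, and with ribosomal protein scaling it was -1.46 and called. The SNU1079 call at 6 h was lost with a pseudocount of 0.5 (-1.13). Without the 3 libraries that stood apart, the SNU1079 differences were -0.79 and -0.85 and neither was called.

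EPHB1, a receptor for B-class ligands best known from the nervous system, is the longest of the 10 genes, at 662.667 kb (chr3:134597801-135260467, plus strand). EPHB1 in RBE at 6 h was at 19.5, 17.9 and 30.8 with YC-1 and 111, 135 and 145 with DMSO. The 16 h libraries of RBE had 2.28, 0 and 30.7 with YC-1, close to nothing in the first 2, and 146, 115 and 145 with DMSO. SNU1079, where EPHB1 stood higher, had 185, 172 and 154 with YC-1 at 6 h, against 740.4, 722 and 699 with DMSO. At 16 h SNU1079 kept 102, 91.1 and 51.5 with YC-1, against 702, 753 and 735 with DMSO. No groups overlapped, and the log2 differences were -2.50 ± 0.68 and -4.85 ± 0.68 in RBE and -2.08 ± 0.68 and -3.20 ± 0.68 in SNU1079. Since 1 library was at 0, the RBE value at 16 h moved with the pseudocount, to -5.26 with 0.5 and -3.68 with 5. With 0.5 the SNU1079 value at 6 h, -2.08 ± 0.80, was not called. The RBE value at 16 h was -3.73 without YC-1 replicate 2 and -6.22 without YC-1 replicate 3. Exons of EPHB1 overlap those of KY on the opposite strand, whose median was 8.43.

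EPHB2, the receptor whose gene covers 210.662 kb at chr1:22710839-22921500 on the plus strand, was lower with YC-1 in both lines. RBE at 6 h showed EPHB2 at 496, 453 and 507 with YC-1, against 1473, 1257 and 1370 with DMSO. RBE at 16 h showed 257, 271 and 332 with YC-1, against 1008, 1177 and 1240 with DMSO. The second time point thus had the wider gap in RBE, with -1.99 ± 0.12 against -1.49 ± 0.12 at 6 h. SNU1079 at 6 h showed 5953, 4419 and 4497 with YC-1, against 9125, 8938 and 9334 with DMSO. SNU1079 at 16 h showed 5169, 4803 and 5378 with YC-1, against 7603, 6551 and 6214 with DMSO. None of these groups overlapped, but the gap in SNU1079 was -0.90 ± 0.12 at 6 h and -0.40 ± 0.12 at 16 h. The SNU1079 values depend on the scaling, with -0.95 and -0.77 under equal library sums and -1.12 and -0.95 under ribosomal protein scaling. The response in SNU1079 at 16 h minus that at 6 h was 0.49 and not called, and 0.18 and 0.17 under those scalings. In RBE the 16 h value of EPHB2 was -2.90 with ribosomal protein scaling.

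EPHB4, the EFNB2 receptor best known from veins, lies at chr7:100802565-100827521 on the minus strand. In RBE it ranged over 539 to 607 with YC-1 and 884 to 935 with DMSO at 6 h, and over 319 to 425 and 775 to 1009 at 16 h, without overlap. In SNU1079 it ranged over 868 to 1188 with YC-1 and 1255 to 1410 with DMSO at 6 h, without overlap, and over 1077 to 1190 and 1173 to 1686 at 16 h, with overlap. The log2 differences were -0.69 ± 0.14 and -1.30 ± 0.14 in RBE and -0.47 ± 0.14 and -0.29 ± 0.14 in SNU1079. Of these, the last was not called on the deposited scale and was called under the 3 other scalings, at -0.65 with equal library sums, -0.53 with equal sums without mitochondrial genes and -0.83 with ribosomal protein scaling. The RBE value at 16 h was -2.20 with ribosomal protein scaling. Exons of EPHB4 overlap those of SLC12A9 on the opposite strand, whose median over the libraries was 559 normalised counts. The library kit keeps the strand, but the counting setting is not given in the sources used here, so the split of reads between the 2 genes is uncertain.

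**Figure D2:**
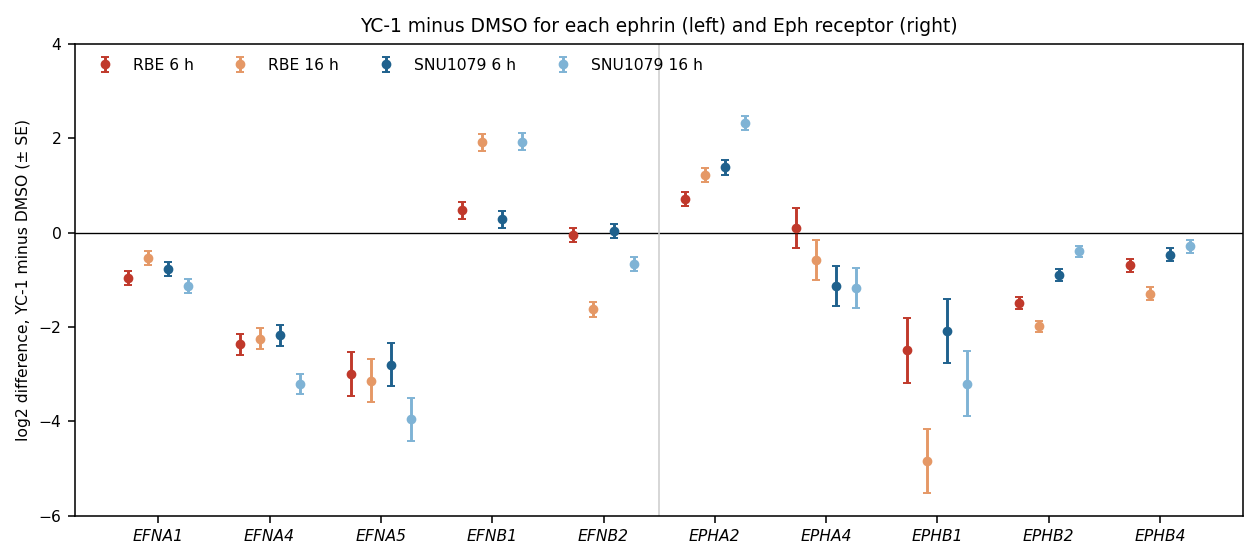
Log2 difference, YC-1 minus DMSO, with its standard error for each of the 10 genes in the 4 comparisons; ligands are left of the grey line and receptors right of it. EPHA2 lay above 0 in all 4, and EFNA4, EFNA5 and EPHB1 lay between -2.08 and -4.85.

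Just inside and just outside the threshold for a call stood EPHA4 in SNU1079 at 6 h (-1.13, called), EFNB1 in RBE at 6 h (0.47, not called) and EPHB4 in SNU1079 at 16 h (-0.29, not called on the deposited scale but called under the 3 other scalings).

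Set per kilobase of exon, so that genes of different length can be compared, the make-up of the family was different with YC-1. Over all 14 Eph receptor genes in the table, the summed level was 1479 ± 40.1 normalised counts per kb in YC-1-treated RBE cells at 6 h, against 1111 ± 125 in DMSO (SD, n = 3). At 16 h it was 2140 ± 188 with YC-1 and 1160 ± 126 with DMSO. SNU1079 had 3444 ± 777 with YC-1 and 2212 ± 40.6 with DMSO at 6 h, and 4596 ± 584 and 1785 ± 272 at 16 h. On the deposited scale this sum was higher with YC-1 in each pair, with no overlap of libraries. With ribosomal protein scaling it was 1406 ± 132 with YC-1 and 1429 ± 185 with DMSO in RBE at 16 h, and those libraries overlapped. EPHA2 makes up the excess: without EPHA2, the other 13 receptor genes summed to 179 ± 8.06 with YC-1 and 308 ± 12.9 with DMSO in RBE at 6 h, and to 131 ± 2.85 and 299.7 ± 34.6 at 16 h. In SNU1079 those 13 summed to 675 ± 116 with YC-1 and 1168 ± 17.8 with DMSO at 6 h, and to 714 ± 11.7 and 1002 ± 118 at 16 h. The sum without EPHA2 was thus lower with YC-1 in each pair, with no overlap, and ribosomal protein scaling kept that direction. The summed level of the 8 ephrin genes was lower with YC-1 in each pair, with 445 ± 21.9 with YC-1 and 627 ± 6.66 with DMSO in RBE at 6 h, and 434 ± 25.1 and 697 ± 38.0 at 16 h. In SNU1079 the ligands summed to 420.0 ± 30.5 with YC-1 and 692 ± 7.43 with DMSO at 6 h, and to 382 ± 22.8 and 798 ± 78.8 at 16 h.

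EPHA2 had the largest share of the receptor sum in each of the 8 groups. That share in RBE was 87.9% ± 0.236 with YC-1 and 72.1% ± 2.07 with DMSO at 6 h, and 93.9% ± 0.426 and 74.2% ± 0.489 at 16 h. In SNU1079 the EPHA2 share was 80.2% ± 1.02 with YC-1 and 47.2% ± 0.165 with DMSO at 6 h, and 84.3% ± 2.04 and 43.6% ± 2.14 at 16 h. EPHB2, the second receptor of SNU1079, had a share there of 11.6% ± 0.559 with YC-1 and 33.0% ± 0.294 with DMSO at 6 h, and 9.03% ± 1.58 and 30.5% ± 1.54 at 16 h. Among the ligands, EFNB1 at 16 h took 53.0% ± 3.04 with YC-1 and 8.72% ± 0.136 with DMSO in RBE, and 39.1% ± 6.33 with YC-1 and 4.90% ± 0.663 with DMSO in SNU1079. EFNB2 in RBE took 23.9% ± 2.12 with YC-1 and 46.0% ± 1.78 with DMSO at 16 h, so the leading ligand of RBE at that time was EFNB1 with YC-1 and EFNB2 with DMSO. EFNA4 had 7.52% ± 2.01 with YC-1 and 33.3% ± 1.40 with DMSO in SNU1079 at 16 h. With the longest coding transcript as the length, the EPHA2 share in SNU1079 at 16 h was 81.5% with YC-1 and 38.8% with DMSO, EPHA2 again led the receptors in each group, and EFNB1 led the ligands of both lines with YC-1 at 16 h.

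**Figure D3:**
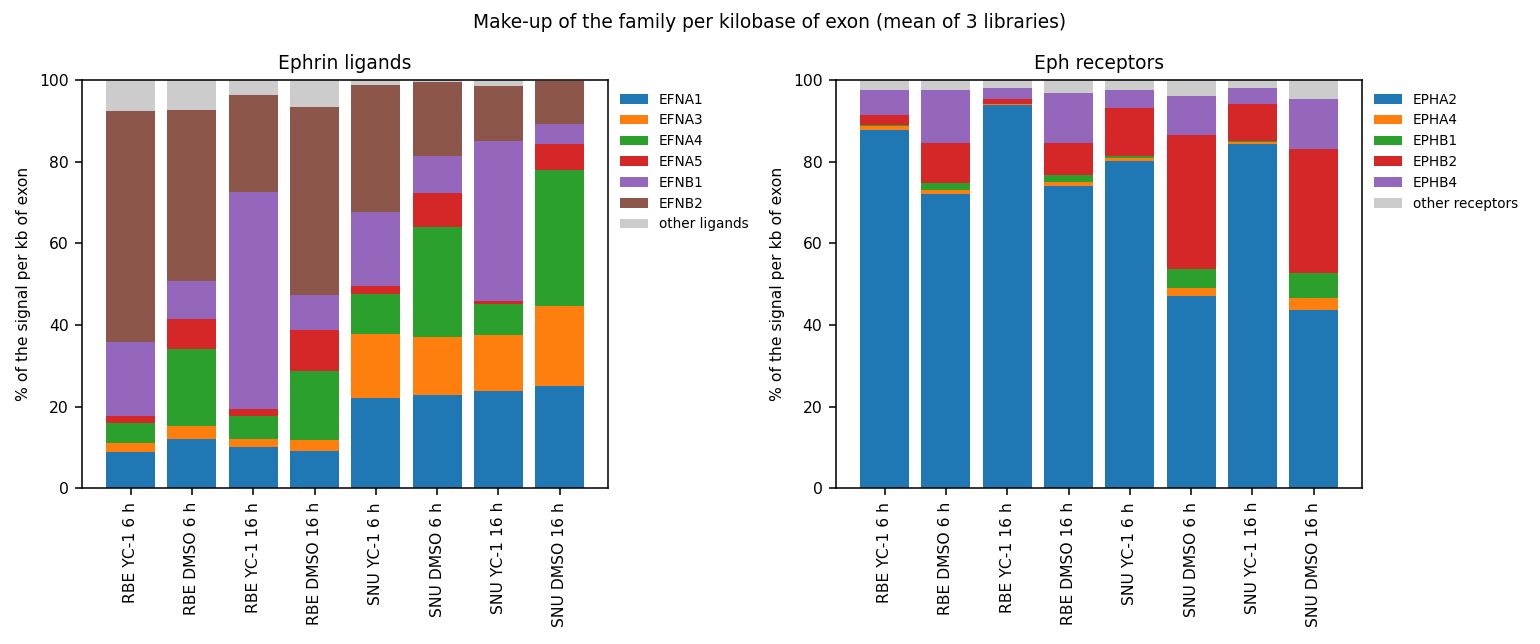
Stacked shares of the summed normalised count per kilobase of exon, as means of 3 libraries, for the 8 ephrin genes (left) and the 14 Eph receptor genes (right) in the 8 groups; SNU stands for SNU1079. EPHA2 made up 80.2% to 93.9% of the receptor sum with YC-1 and 43.6% to 74.2% with DMSO.

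The 2 lines with vehicle alone, a comparison the list did not use, could be tested. In DMSO, 8 of the 10 genes differed between the lines at 6 h, 1 higher and 7 lower in RBE than in SNU1079, where 56.4% of all tested genes differed. At 16 h, 2 were higher and 6 lower in RBE, where 55.1% of all genes differed. Without the 3 SNU1079 libraries that stood apart, 3 were higher and 6 lower at 16 h. EPHB2 was the gene with the widest gap at 6 h, with 1473, 1257 and 1370 in RBE and 9125, 8938 and 9334 in SNU1079 (-2.74 ± 0.12, adjusted p = 5.74e-14). EPHB1 was lower in RBE by the same comparison (-2.46 ± 0.68, adjusted p = 0.00414), as was EPHA4 (-1.83 ± 0.42, adjusted p = 0.000888). EFNB2 was higher in RBE at 6 h (1.07 ± 0.15, adjusted p = 2.28e-06) and at 16 h (1.98 ± 0.15, adjusted p = 2.25e-10). EFNA1 was lower in RBE at 6 h (-1.07 ± 0.15, adjusted p = 3.83e-06), and EFNA4 less so (-0.66 ± 0.22, adjusted p = 0.0163). EPHB4 was lower in RBE at 6 h (-0.55 ± 0.14, adjusted p = 0.00246). EPHA2 was lower in RBE at 6 h (-0.39 ± 0.15, adjusted p = 0.037) but not called at 16 h (0.15 ± 0.15, adjusted p = 0.426). The EPHA2 call at 6 h was lost without any DMSO library of that time other than RBE replicate 1, at -0.28 to -0.42, and the EFNA4 call was lost without RBE replicate 2 (-0.61) or 3 (-0.62). EFNA5 missed the threshold at both times, with -0.35 ± 0.46 at 6 h and 0.44 ± 0.46 at 16 h, and the standard errors leave room for differences of either sign. EFNB1 missed it at 6 h (-0.08 ± 0.18) and was higher in RBE at 16 h (0.64 ± 0.18, adjusted p = 0.00383).

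Per kilobase of exon in DMSO at 6 h, the order of levels in RBE was EPHA2 (802 ± 112), EFNB2 (262 ± 21.2), EPHB4 (142 ± 4.09), EFNA4 (118 ± 11.8), EPHB2 (109 ± 8.62), EFNA1 (75.6 ± 1.46), EFNB1 (58.8 ± 7.04), EFNA5 (46.2 ± 9.39), EPHB1 (18.8 ± 2.51) and EPHA4 (11.4 ± 4.29), as means ± SD of 3 libraries. EFNA4 and EPHB2 are neighbours whose SDs overlap, as are EFNB1 and EFNA5. In SNU1079 the order was EPHA2 (1044 ± 22.7), EPHB2 (729.6 ± 15.8), EPHB4 (209 ± 12.4), EFNA4 (186 ± 12.2), EFNA1 (159 ± 11.3), EFNB2 (125 ± 8.25), EPHB1 (104 ± 3.01), EFNB1 (62.1 ± 6.82), EFNA5 (58.1 ± 5.81) and EPHA4 (39.5 ± 7.08). There EPHB4 and EFNA4, and EFNB1 and EFNA5, are neighbours whose SDs overlap. EPHA2 led in both lines, and the EphB receptor next to it was EPHB4 in RBE and EPHB2 in SNU1079.

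Time in DMSO alone, 16 h against 6 h, called none of the 10 genes in RBE by limma, where 0.0448% of all genes were called and 1 of the 10 had an unadjusted p below 0.05. In SNU1079 it called 3 of the 10, all lower at 16 h, where 8.57% of all genes were called and 6 of the 10 had an unadjusted p below 0.05. The 3 were EFNB1 (-0.67 ± 0.18, adjusted p = 0.0197), EFNB2 (-0.62 ± 0.15, adjusted p = 0.00955) and EPHB2 (-0.43 ± 0.12, adjusted p = 0.0287). EFNB2 in SNU1079 was 341, 428 and 459 at 16 h and 659, 641 and 579.9 at 6 h in DMSO. The 16 h comparison with YC-1 in SNU1079 uses these DMSO libraries, so a change over time in DMSO enters it. The EFNB2 call was lost without DMSO 16 h replicate 1, at -0.50. EFNB1 was lost without replicate 2 or 3 of either DMSO group, at -0.51 to -0.67, and EPHB2 without any DMSO library but 16 h replicate 1, at -0.37 to -0.45. The count of 3 was 0 when the fit held only the SNU1079 libraries and 4 without the 3 libraries that stood apart.

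The 10 genes differ widely in length. Over all 17258 tested genes with an annotated span, a larger share of long than of short genes was called lower with YC-1: 5.48% of genes under 10 kb were called lower in RBE at 6 h, and 45.3% of genes of 300 kb or more. At 16 h in RBE these shares were 13.8% and 65.1%, and in SNU1079 they were 7.66% and 41.2% at 6 h and 16.7% and 59.3% at 16 h. EPHB1, at 662.667 kb, and EFNA5, at 294.007 kb, had differences below the median of their span classes in all 4 comparisons. For the class of 300 kb or more those medians were -0.73 and -1.25 in RBE and -0.61 and -1.0 in SNU1079, against -2.50, -4.85, -2.08 and -3.20 for EPHB1. The 2 shortest genes, EFNA4 and EFNA1, went against their class, whose RBE medians were 0.10 and 0.48 and whose SNU1079 medians were 0.11 and 0.35. The Spearman correlation of span with the log2 difference over the 10 genes was -0.36 at 6 h and -0.55 at 16 h for RBE, then -0.35 and -0.27 for SNU1079, as a description of genes measured in shared libraries. Over all 17258 genes it was -0.32, -0.41, -0.27 and -0.31 in the same order.

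**Figure D4:**
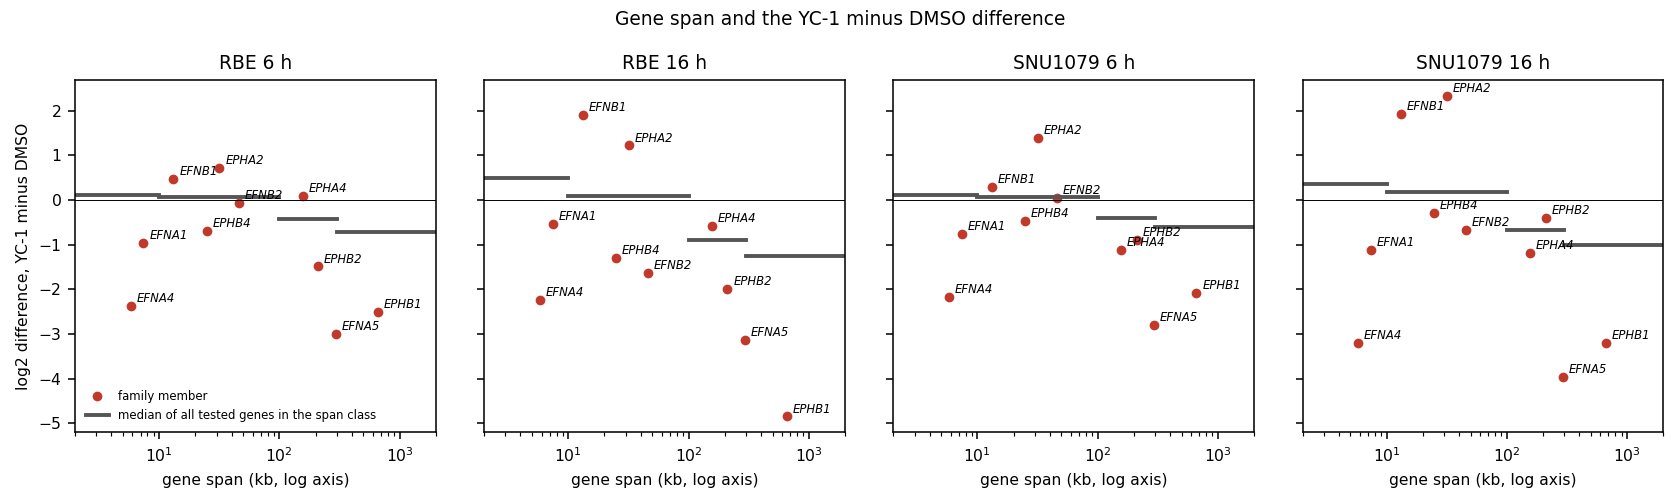
Log2 difference, YC-1 minus DMSO, against gene span in kb on a log axis for the 10 genes (red) in the 4 comparisons, with the median of all tested genes in 4 span classes (grey bars). The medians fall below 0 above 100 kb, and EFNA4, at 5.823 kb, lies between -2.18 and -3.21.

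Beyond the 10 genes the table holds 12 other ephrin and Eph genes. Of these 7 were tested, and EPHA1, EPHA3, EPHA5, EPHA7 and EPHA8 did not pass the filter, with at most 13.9 normalised counts in any library. EFNA3 and 3 others of these 7 were called in a YC-1 comparison. EFNA2, an A-class ligand, had 7.72, 6.43 and 6.04 with YC-1 and 25.2, 42.9 and 37.0 with DMSO in RBE at 16 h and fell (-2.19 ± 0.51, adjusted p = 0.00113). It reached at most 3.58 in SNU1079. EPHA6, an EphA receptor, fell in RBE at 16 h, with 9.85, 4.04 and 14.8 with YC-1 and 35.6, 17.4 and 28.8 with DMSO (-1.51 ± 0.38, adjusted p = 0.00206). EPHA10, a receptor with an inactive kinase domain, rose in SNU1079 at 16 h, with 244, 429 and 220.3 with YC-1 and 133, 164 and 143 with DMSO (0.96 ± 0.29, adjusted p = 0.00749). The second of those YC-1 libraries is one that stood apart, and without that library EPHA10 had a difference of 0.66, without the 3 such libraries 0.59, and with equal library sums 0.60, none of them called. EFNB3, EPHB3 and EPHB6 were not called in any YC-1 comparison. EPHB6, also a receptor with an inactive kinase domain, differed between the lines, with 11.1, 8.21 and 13.8 in RBE and 257, 206 and 239 in SNU1079 in DMSO at 6 h (-4.31 ± 0.46, adjusted p = 7.19e-08).

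Downstream of the receptors, 57 of 65 listed genes were tested under YC-1, 50 signalling genes and the 7 other family genes. In RBE, 4 rose and 19 fell at 6 h, and 5 rose and 32 fell at 16 h. In SNU1079, 4 rose and 18 fell at 6 h, and 11 rose and 26 fell at 16 h. The median log2 differences were -0.27 and -0.57 in RBE and -0.20 and -0.37 in SNU1079, beside 0.00 and 0.02, and 0.01 and 0.06, over all tested genes. The shares of all genes called were 11.6% higher and 12.4% lower, and 27.3% and 26.6%, in RBE, and 14.0% and 14.2%, and 28.7% and 25.8%, in SNU1079. With libraries scaled to ribosomal protein genes 1 rose and 15 fell in RBE at 6 h, 0 and 48 at 16 h, and in SNU1079 2 and 23 at 6 h and 2 and 37 at 16 h. With equal library sums the counts were 4 and 19, and 4 and 38, in RBE, and 4 and 22, and 3 and 34, in SNU1079. Without the 3 libraries that stood apart SNU1079 had 4 and 19 at 6 h, and 10 and 26 at 16 h. The shares of all genes given here are for all libraries on the deposited scale. Calls over all genes move with the scaling too, as given above for RBE at 16 h, so these counts include that shift. Shares called lower also differ with gene length, at 13.8% under 10 kb and 65.1% at 300 kb or more in RBE at 16 h. The part that length has in the counts of the listed genes was not tested. The lists were chosen with earlier results of these data known, and the signalling genes named below were picked by size of difference. Adjusted p-values given for those genes are therefore a description.

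Of 14 adaptors and kinases, 2 rose and 5 fell in RBE at 6 h and 9 fell at 16 h, with none higher. The counts in SNU1079 were 5 and 9 lower and none higher. PTK2, the focal adhesion kinase, had 896 ± 99.5 normalised counts with YC-1 and 4523 ± 104 with DMSO in RBE at 16 h (SD, n = 3; -2.34 ± 0.10, adjusted p = 2.73e-13). It fell in the other 3 comparisons too, by 1.78 in RBE at 6 h and by 1.5 and 1.74 in SNU1079 on the log2 scale. ANKS1A, an adaptor that binds Eph receptors and steers their transport, fell in all 4, with -1.46 and -2.14 in RBE and -0.95 and -1.48 in SNU1079. RASA1, a Ras GTPase-activating protein that docks on EphB receptors, fell in all 4 as well, with -1.15, -2.43, -1.24 and -1.25 in the same order. FYN, a Src family kinase, fell at both times in RBE (-0.97 and -1.78) and at 16 h in SNU1079 (-1.57), where its 6 h value was -0.82 (adjusted p = 0.0507). PIK3R1, a regulatory subunit of phosphoinositide kinase, fell in SNU1079 at both times (-1.21 and -1.20) and in RBE at 16 h (-1.60). The FYN call in RBE at 6 h was lost without any library compared other than DMSO replicate 3, at -0.89 to -0.99. The PIK3R1 call in SNU1079 at 6 h was lost without YC-1 replicate 1 (-0.95) or DMSO replicate 2 (-1.06).

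Reverse signalling runs through proteins that bind the tail of B-class ligands. Of 5 such genes, SDCBP (syntenin), a PDZ scaffold, rose in all 4 comparisons, with 0.99 ± 0.10 in RBE and 1.21 ± 0.10 in SNU1079 at 16 h (adjusted p = 8.56e-08 and 5.56e-09). With ribosomal protein scaling its RBE values were 0.29 at 6 h and 0.08 at 16 h and its SNU1079 value at 6 h was 0.12, none called. Its 6 h calls were also lost without YC-1 replicate 2 or DMSO replicate 3 in RBE (0.34 each), and without YC-1 replicate 2 or 3 or DMSO replicate 1 or 3 in SNU1079 (0.25 to 0.33). PTPN13, a phosphatase for ephrin-B, fell in all 4, with -0.95 and -2.40 in RBE and -0.98 and -2.39 in SNU1079. GRIP1, another PDZ scaffold, fell in 3, with -2.21 in RBE at 16 h and -2.21 and -2.14 in SNU1079, and its value in RBE at 6 h was -1.19 (adjusted p = 0.117).

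Among 12 tested genes for cleavage, ubiquitylation and dephosphorylation of Ephs and ephrins, 1 rose and 3 fell in RBE at 6 h, 2 rose and 5 fell at 16 h, and the counts in SNU1079 were 2 and 4, then 6 and 4. ADAM10, the protease that cuts ephrins at cell contacts, fell in all 4. It had 836 ± 57.7 with YC-1 and 3986 ± 111 with DMSO in RBE at 16 h (-2.25 ± 0.14, adjusted p = 3.76e-11), and its values elsewhere were -0.95 in RBE at 6 h and -0.89 and -1.63 in SNU1079. MMP14, a membrane protease that cleaves EPHA2, responded differently in the 2 lines by the test of that difference (-3.97 ± 0.42 at 16 h, RBE minus SNU1079, adjusted p = 2.7e-06). In SNU1079 it rose to 99.4 ± 46.1 with YC-1 at 6 h, against 13.8 ± 3.17 with DMSO (2.70 ± 0.30, adjusted p = 7.07e-07), and to 320.2 ± 42.3 at 16 h, against 14.7 ± 8.11 (4.50 ± 0.30, adjusted p = 1.2e-10). RBE already held much more, at 2748 ± 91.1 with YC-1 and 1909 ± 198 with DMSO at 16 h, and was not called (0.53 ± 0.30, adjusted p = 0.142). PTPRJ, a receptor phosphatase that acts on Eph kinases, fell in all 4, from -0.99 to -1.90. CBLB, a ubiquitin ligase, fell in 3, with -1.88 in RBE at 16 h and -1.54 and -1.70 in SNU1079. INPPL1, the phosphoinositide phosphatase SHIP2 that binds EPHA2, rose in all 4, with 0.60 and 0.70 in RBE and 0.65 and 0.87 in SNU1079. With ribosomal protein scaling INPPL1 was not called at 16 h, at -0.20 in RBE and 0.32 in SNU1079. PTPN1, a phosphatase that acts on EPHA3 among others, fell in all 4 by smaller amounts, from -0.25 to -0.59, and its call in RBE at 6 h was lost without YC-1 replicate 3 (-0.22) or DMSO replicate 3 (-0.21) and with ribosomal protein scaling (-0.31). ACP1, a low-weight phosphatase for EPHA2, rose at 16 h in RBE (0.85) and SNU1079 (0.40), and its RBE value was -0.05 with ribosomal protein scaling. In SNU1079 the ACP1 call was lost under all 3 scalings, at -0.15 to 0.15.

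**Figure D5:**
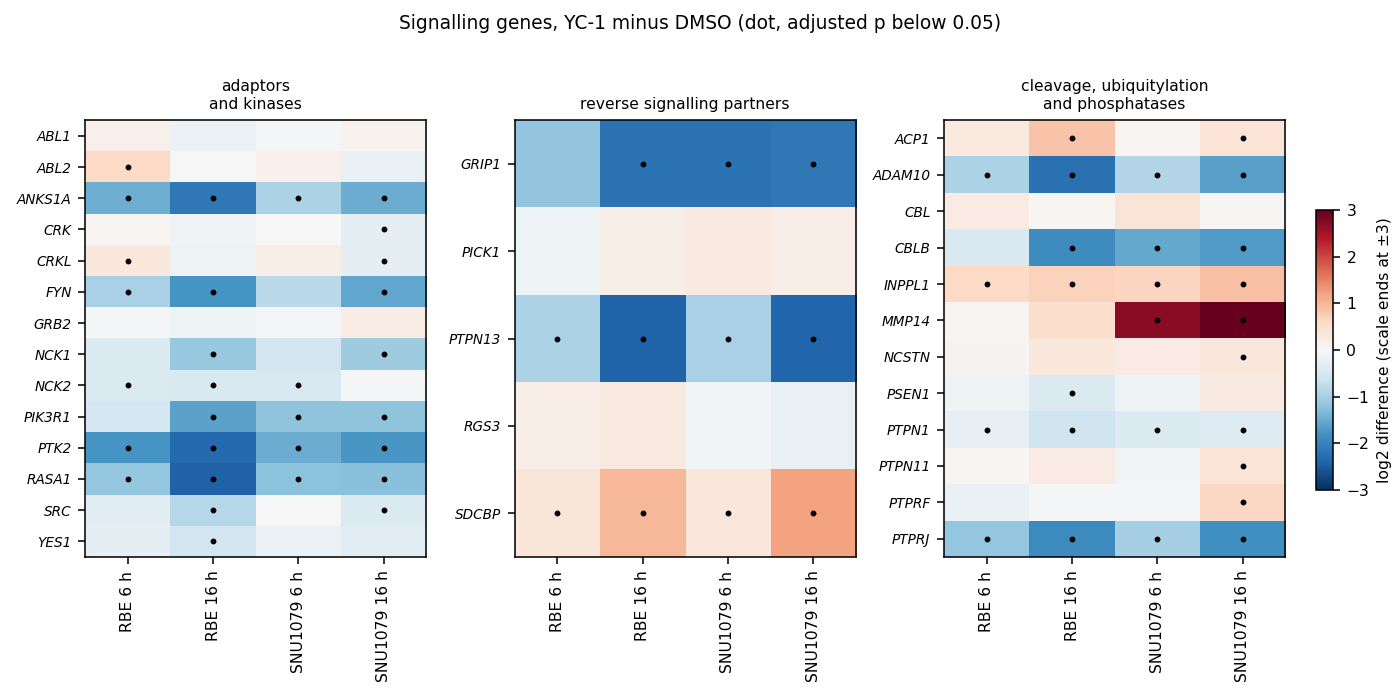
Log2 difference, YC-1 minus DMSO, of the 14 adaptors and kinases, 5 reverse signalling partners and 12 genes for cleavage, ubiquitylation and dephosphorylation tested, red for higher and blue for lower with the colour scale ending at ±3, and a dot where the adjusted p was below 0.05. Among the adaptors and kinases every dotted cell at 16 h is blue, and MMP14 is red with a dot in both SNU1079 columns and has none in the RBE columns.

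The genes most like 3 of the members over the 8 group means were found by Pearson's r of log2 values among 12308 genes with a group mean of at least 100, the family left out. For EFNA5 they were JRK (r = 0.993), ZNF586 (0.992) and RELL1 (0.988). For EPHB1 they were RIMS3 (0.997), SLC35F3 (0.995) and PPP1R9A (0.994), and for EFNA1 they were RANBP17 (0.992), SDHC (0.989) and ALG8 (0.988). These r values rest on 8 points that share 2 lines and 1 treatment, and no p is given. Within the family, group means of EFNA1 and EPHB2 had r = 0.92, EFNA4 and EFNA5 had 0.93, and EFNA5 and EPHA2 had -0.87. In the first pair both genes are also higher in SNU1079, so the line enters that value.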

How the data were processed

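The members, gene lists and motifs were chosen with earlier results of these data known. Total RNA went through a stranded mRNA kit, and STAR and DESeq2 with build hg38 are named in the submitters' processing notes; the sources used here give no versions, counting tool or strand setting. The authors deposited 1 table of normalised counts (a signal per gene, neither raw counts nor scaled to equal totals) for 24 libraries. Whole reads could not be recovered (22.8% to 67.9% of values under 20 lay within 0.1 of a multiple of the commonest low value), so depth is unknown and no count test was run.

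From the table, log2(value + 1) was fitted with limma 3.58.1 (R 4.3.3), with 8 group means, a mean-variance trend and Benjamini-Hochberg adjustment over 17860 genes with at least 10 in at least 3 libraries. The steps were tested on simulated data. Python 3.11.15, pandas 2.3.3 and matplotlib 3.10.9 made the tables and plots. Spans, exon lengths and overlaps came from GENCODE 29. Named genes were the 10 members, the other tested family genes, up to 4 called genes per list and comparison by size of difference, and the 3 genes most like EFNA5, EPHB1 and EFNA1. ADAM15, SLC50A1 and DCST1-AS1 were named after their values were seen. One listed marker and 1 of the signalling lists are not reported here.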

Additional observations from a re-analysis of the deposited data

Results flagged for a closer look

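These are differences between 2 YC-1 responses that passed limma's test of the difference itself over all genes. For the 10 genes they are given as values, with SE and no p, because the list was made with the responses in view. At 16 h against 6 h in RBE, where 18.2% of all genes passed, the response differed by 1.45 ± 0.25 for EFNB1, by -1.58 ± 0.21 for EFNB2, by -0.50 ± 0.17 for EPHB2 and by -0.61 ± 0.20 for EPHB4. The EPHB2 and EPHB4 differences were both lost without any 1 of 7 of the 12 RBE libraries, without the low-value filter and without the variance trend, while those of EFNB1 and EFNB2 were called in each of these. In SNU1079, where 17.0% passed, it differed by -1.03 ± 0.32 for EFNA4, by 1.64 ± 0.25 for EFNB1, by -0.71 ± 0.21 for EFNB2 and by 0.94 ± 0.22 for EPHA2. With only the SNU1079 libraries in the fit, EFNB1 alone was called, and EFNA4 and EFNB2 were lost without DMSO 6 h replicate 3 or YC-1 16 h replicate 2. EFNA4 was also lost without DMSO 16 h replicate 1 or 2 or DMSO 6 h replicate 1. EFNB2 was also lost without DMSO 16 h replicate 3 or YC-1 6 h replicate 2 or 3. Without the 3 libraries that stood apart EFNA4 was not called and EPHB2 was. With equal library sums EPHA2 was not called, at 0.63.

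Between the lines, RBE minus SNU1079, none of the 10 genes passed at 6 h, where 1.54% of all genes did and 2 of the 10 had an unadjusted p below 0.05. At 16 h, where 14.6% of all genes passed, the response differed by 0.96 ± 0.32 for EFNA4, by -0.96 ± 0.21 for EFNB2, by -1.09 ± 0.22 for EPHA2, by -1.59 ± 0.17 for EPHB2 and by -1.01 ± 0.20 for EPHB4. EFNA4 was lost with ribosomal protein scaling, a pseudocount of 0.5 or a replicate block, and without the low-value filter. It was also lost with only the libraries compared, without the 3 libraries that stood apart and without most single libraries. EFNB2, EPHA2, EPHB2 and EPHB4 were called under every alternative tried. MMP14, which is not one of the 10 and was tested after its values were seen, differed between the lines by -2.64 ± 0.42 at 6 h (adjusted p = 0.00146) and by -3.97 ± 0.42 at 16 h (adjusted p = 2.7e-06), and between times in SNU1079 by 1.80 ± 0.42 (adjusted p = 0.00618).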

How the results depend on the processing

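Of 326 counts of calls recomputed under the alternatives, 301 stayed within 1.5 times the reported count. With the times pooled, 35 of the 57 listed genes were called in RBE in place of 23 at 6 h. With only the libraries compared in the fit, 24 were called in SNU1079 at 16 h in place of 37. For 16 h against 6 h in DMSO in SNU1079, the 3 members called became 1 with equal library sums, 0 with only the 12 SNU1079 libraries and 0 with only those compared, and 1 to 3 with each library left out. Members whose YC-1 response differed between times became 2 in place of 4 in RBE without the low-value filter, 2 without the variance trend and 2 to 4 with a library left out. In SNU1079 the 4 became 1 with only the line's 12 libraries, 1 with only those compared and 2 to 5 with a library left out. Members called in SNU1079 at 6 h were 5 to 7 with a library left out, against 8. Of 4266 values of single genes, 4012 were counted as unchanged. For YC-1 responses of the members, and differences between those responses, that meant a move below the pooled SD between replicate libraries. Whether the call was kept was not part of that rule, and some calls were lost, as given above. For the rest it meant the same call, with the same direction or, if not called, a move below the SE. The 1 reversal was ACP1 in RBE at 16 h, -0.05 with ribosomal protein scaling. The cause of these moves was not tested, beyond the smaller fits having fewer libraries. In RBE at 16 h the median of all genes was -0.82 under ribosomal protein scaling and -0.27 under equal sums, against 0.02, which bears on every difference there.

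Replicate numbers did not pair the libraries: deviations of same-numbered libraries correlated from -0.147 to 0.188, and 3 of 18 correlated best with their own number. With a replicate block within each line, 7 members were called in RBE at 6 h, 9 at 16 h, 8 in SNU1079 at 6 h and 9 at 16 h. The alternative without the 3 libraries that stood apart, the transcript lengths and the receptor sum without EPHA2 or with ribosomal protein scaling were chosen after seeing the data. Without read depth, low values carry an unknown counting error.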
